A study of Homo sapiens with 4 samples.

Results

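The baseline transcriptome of H1975, a human lung adenocarcinoma cell line, was taken from its RNA-seq library after 24 h in normoxia. Its members are the genes with 20 or more read counts in that library, 12478 of the 15562 genes with a value (80.2%), so they were chosen by their measured counts and their membership is given as a description. The line is labelled wild type, and sequence variants, those of EGFR included, were not examined here. The cells were grown in RPMI 1640 with 10% fetal bovine serum and antibiotics at 37 °C in 5% CO2. The hypoxia library, from the same line after 24 h in 1% O2, 5% CO2 and 94% N2, is used here to give the level of the same genes in a separate library. The series holds 4 libraries, of which 2 are RNA-seq and 2 are small RNA libraries not used here. H1975 is 1 cell line, and each condition was measured with 1 library, so no level below has a spread between cultures and no test was possible.

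Lung adenocarcinoma arises from the epithelium of the distal airways and alveoli. Alveolar type II cells make surfactant and carry the transcription factor NKX2-1, type I cells form the thin gas exchange surface, and club, ciliated and basal cells line the conducting airways. Adenocarcinoma cells often keep part of the alveolar program and often depend on signals from receptor tyrosine kinases, of which EGFR is the best known in this disease and in this line. A level is given as FPKM, read counts divided by gene length and by the library's total, which allows genes of different length to be set side by side, with the read count behind it. Intervals in parentheses are exact Poisson 95% intervals of the read count carried to FPKM. They cover counting error only. The labels name no molecular identifiers, so duplicate reads could not be told from separate molecules.

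The normoxia library held 17643836 counts and the hypoxia library 18943320. At the normoxia depth 1 count in a gene of 1 kb equals an FPKM of 0.0567, and for a gene at 0 the limit given is that of 3 counts. Members held 99.91% of all counts. The genes just inside the threshold, 44 genes at 20 counts, lay between FPKM 0.066 and 2.41, and the 43 genes at 19 counts lay between 0.107 and 2.31. ATAD3C and CAMK2B, each at 20 counts, had 19 counts each in hypoxia, and ACKR2, AKR7A3 and AMIGO1, each at 19 counts, had 20, 23 and 17. The threshold therefore separates genes whose levels overlap. Of the members, 12334 also reached 20 counts in hypoxia and 144 did not, while 182 genes outside the threshold reached it there.

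Levels of members ranged from FPKM 0.0102 to 5443, with a median of 8.01 and quartiles of 2.75 and 22.7. The lowest was TTN, which encodes the giant muscle protein titin, at 21 counts spread over a very long gene. FPKM was under 1 for 1328 members, from 1 to 10 for 5642, from 10 to 100 for 4832 and 100 or more for 676, of which 52 reached 1000. At an FPKM of 1 or more stood 11176 of all 15562 genes (71.8%), including 26 genes under 20 counts. The 10 genes with most counts held 5.03% of the library, the 100 with most counts 17.9% and the 1000 with most counts 49.6%. On the FPKM scale the corresponding shares were 9.39%, 32.4% and 64.8%.

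**Figure D1:**
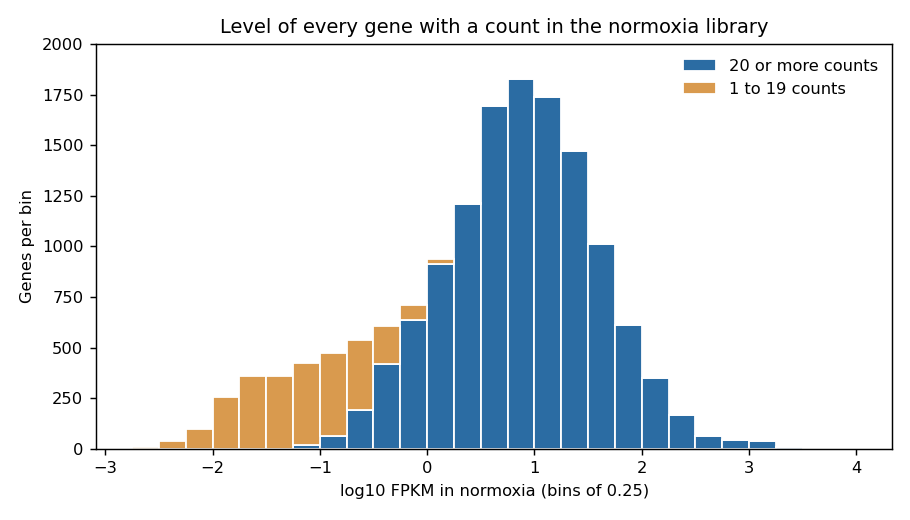
Histogram of the level of every gene with at least 1 count in the normoxia library, with log10 FPKM on the x axis in bins of 0.25 and the number of genes on the y axis. Blue bars are the 12478 genes at 20 or more counts, and orange bars, stacked on them, are the 2573 genes at 1 to 19 counts. The blue genes centre on their median FPKM of 8.01, and the orange genes fill the low tail.

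The highest levels belonged to calcium-binding, iron-storage, ribosomal and actin-cytoskeleton genes. S100A6, a small calcium-binding protein, led at FPKM 5443 (5391 to 5496) with 41680 counts, and stood at 5033 in hypoxia. FTH1, the ferritin heavy chain that stores iron, followed at 5267 (5236 to 5298) in normoxia and 5653 in hypoxia. RPS2, a protein of the small ribosomal subunit, was at 5012 (4978 to 5046), and its hypoxia level was 4673. The intervals of these 3 genes did not overlap. TMSB10, a thymosin that binds actin monomers, was at 4785 (4738 to 4833) and ACTB, beta-actin, at 4766 (4742 to 4790), so these neighbours could not be ordered beyond counting error. ACTB had the most counts of any gene, 152366. Its close paralogue ACTG1 had 48669 counts, and reads shared between the actins could have been split by the counting, so both values are uncertain. Further down the 30 highest genes stood TMSB4X at 3472, the glycolytic enzyme GAPDH at 2714, the galectin LGALS1 at 2397, the intermediate filament VIM at 1914, the keratins KRT8 at 1821 and KRT19 at 1554, the ferritin light chain FTL at 1737, the glutathione transferase GSTP1 at 1532 and the small heat shock protein HSPB1 at 1501.

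The start sites of the highest genes were examined because their sequences carry features that the count threshold did not use. Vertebrate genes for ribosomal proteins and elongation factors are known for a 5′ terminal oligopyrimidine start (a TOP start), in which transcription begins at a C followed by a run of C and T. It was searched as a C at the annotated start followed by at least 4 pyrimidines. A TATA box is a classical element upstream of the start, and was searched as TATAAA on the gene strand between 45 and 16 bases before it. The windows below run from 40 bases before to 10 bases from the annotated start, 5′ to 3′ on the gene's own strand, from the RefSeq promoters of GRCh38.p14. Capitals mark the TOP run and TATAAA. The first 4 genes have a TOP start without TATAAA, the next 2 have both, the 4 after them have TATAAA alone, and the last 2, which are among the 5 highest genes, have neither.
RPS18, chr6:33272035-33272084, plus strand: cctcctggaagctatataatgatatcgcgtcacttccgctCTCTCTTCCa
RPSA, chr3:39406680-39406729, plus strand: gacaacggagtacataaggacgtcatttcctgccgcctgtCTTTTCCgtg
EEF1A1, chr6:73521023-73521072, minus strand: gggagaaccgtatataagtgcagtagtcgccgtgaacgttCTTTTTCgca
RPL35, chr9:124861948-124861997, minus strand: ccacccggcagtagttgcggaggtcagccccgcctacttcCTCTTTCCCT
RPLP0, chr12:120201102-120201151, minus strand: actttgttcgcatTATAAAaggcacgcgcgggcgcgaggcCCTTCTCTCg
EEF2, chr19:3985454-3985503, minus strand: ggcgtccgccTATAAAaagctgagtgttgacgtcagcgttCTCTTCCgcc
PPIA, chr7:44796641-44796690, plus strand: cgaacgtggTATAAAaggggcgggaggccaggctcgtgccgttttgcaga
MT2A, chr16:56608544-56608593, plus strand: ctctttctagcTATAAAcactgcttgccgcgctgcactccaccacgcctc
CALR, chr19:12938569-12938618, plus strand: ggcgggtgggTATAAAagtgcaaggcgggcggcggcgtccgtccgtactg
ANXA1, chr9:73151825-73151874, plus strand: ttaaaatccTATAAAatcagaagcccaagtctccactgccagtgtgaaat
S100A6, chr1:153535982-153536031, minus strand: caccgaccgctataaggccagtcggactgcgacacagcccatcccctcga
TMSB10, chr2:84905616-84905665, plus strand: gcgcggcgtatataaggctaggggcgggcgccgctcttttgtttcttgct

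TOP starts were frequent among the highest genes, and most of them belonged to ribosomal proteins. Of the 100 highest members by FPKM, 81 had a RefSeq promoter and 29 of these (35.8%) had a TOP start. Of the 100 with most counts, 78 had a promoter, under the 80% set for a share, and 18 of these had a TOP start. The share was 4.29% of 5011 promoters among members below the median FPKM, 6.16% of 5148 among members above it outside the highest 100, and 4.04% over all 27305 promoters in the table. Cytosolic ribosomal protein genes held 42 TOP starts in 62 members with a promoter (67.7%), against 519 in the other 10178 (5.10%). Within the highest 100, 23 of 33 ribosomal protein genes had one, such as RPS18 at FPKM 2675 and RPL35 at 1724. Among the other 48 it was present in 6, which were EEF1A1 and EEF2 (elongation factors), RACK1 (a ribosome-bound scaffold), PTMA, TOMM7 (a mitochondrial import subunit) and TUBB (a beta-tubulin).

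TATAAA was present in 6 of the 81 highest promoters (7.41%), against 1.28% among members below the median FPKM, 1.83% among those above it and 2.63% of all promoters. The 6 genes were ANXA1 (annexin A1), CALR (calreticulin), EEF2, MT2A (a metallothionein), PPIA (cyclophilin A) and RPLP0 (a ribosomal stalk protein). A match is a description of letters, and a promoter without these letters may still hold a variant of them. The median ratio of observed to expected CpG was 0.813 below the median FPKM, 0.862 above it and 0.881 in the highest 100, against 0.580 over all promoters. The motif GGGCGG on either strand, the GC box, was found in 64.9%, 71.5% and 69.1% of the 3 classes and in 42.3% of all promoters. The gene length implied by counts and FPKM had medians of 5201, 3125 and 1085 bases from the lowest to the highest class. Length enters FPKM as its divisor, and the 100 genes with most counts had a median length of 2106 bases.

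The lineage markers gave a mixed alveolar picture, in which the transcription factor NKX2-1 and part of the type II genes were present and the surfactant proteins had few reads. NKX2-1, which directs lung and thyroid identity (chr14:36516397-36520232, GRCh38.p14), had 1356 counts and FPKM 32.35 (30.65 to 34.1) in normoxia and 34.8 in hypoxia, above 85.55% of genes with a value. Of 14 type II markers with a value, 7 reached 20 counts, against 80.2% of all genes, and the list median was FPKM 0.444, or 0.162 over genes overlapping no other gene, against 4.84 for all genes. MUC1, a membrane mucin, was at 217 and LPCAT1, an enzyme of surfactant phospholipid remodelling, at 206. ABCA3, the lipid transporter of lamellar bodies, was at 19.02, the ETS factor ETV5 at 9.72 and NAPSA, the napsin A protease used in diagnosis of this tumour type, at 3.34 (2.68 to 4.10) from 90 counts. The surfactant proteins were far lower. SFTPB had 14 counts in each library, which is FPKM 0.211 (0.116 to 0.355) in normoxia. SFTPC had 4 counts, SFTPD 3, SFTPA1 2, the type II transporter SLC34A2 14 and the lysosomal membrane protein LAMP3 14. SFTA2 had 0 counts, which allows an FPKM of up to 0.381.

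Markers of the other lung epithelial types were low or scattered. Among type I markers 5 of 9 reached 20 counts. CAV1, the caveolar coat protein, was at 195 and its partner CAV2 at 41.8, whereas the more restricted AGER was at 2.69 from 81 counts, AQP5 had 10 counts and PDPN had 0, which allows up to 0.0550. The secretory list had 4 genes with a value of 10 listed, and 3 at 20 counts, with the highest, SPDEF, at 1.13. The gel-forming mucins MUC5B and MUC5AC stood at 0.522 and 0.120. Club cell secretoglobins were not analysed here. Ciliated markers reached 20 counts in 8 of 9, near the 80.2% of all genes, but 50 counts in only 5 and FPKM 1 in 5, with the calcium-binding protein CAPS at 11.7, the ciliary transcription factor FOXJ1 at 7.03 (6.28 to 7.85) from 321 counts, CCDC78 at 5.21 and TPPP3 at 1.93. The axonemal dyneins DNAH5 and DNAI1 were at 0.523 and 0.468 and TEKT1 had 1 count. Among basal and squamous markers 3 of 10 reached 20 counts and 6 reached 10. KRT15 was at 22.3 and SOX2 at 3.70, but the defining TP63 had 17 counts and KRT5 had 1. Neuroendocrine SYP (synaptophysin) was at 2.08 and the Notch ligand DLL3 at 1.30, while CHGB had 3 counts.

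Among transcription factors of endoderm, SOX9 of the distal lung bud was at 24.2 (23.1 to 25.4) and FOXA2 at 14.1 (13.02 to 15.15), while the related FOXA1 had 3 counts and FPKM 0.0396. GATA6 was at 2.17. The gut and liver factor HNF4A had 1 count, and the liver and gut products reached 20 counts only for SERPINA1, alpha-1 antitrypsin, at 15 from 965 counts, of 10 genes with a value. Fewer cells of a type and less RNA per cell cannot be told apart in a bulk library, so a low level of a marker can stand for many cells with little RNA or few cells with more.

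Simple epithelial keratins and a few mesenchymal genes, above all VIM, were high. The list of simple epithelial keratins, which also holds hair keratins, reached 20 counts in 7 of 7, beside 80.2% of all genes. KRT8 was at 1821, KRT19 at 1554, KRT18 at 1169 and KRT7 at 549 (542.3 to 555.7). KRT7 stood at 407 in hypoxia. The type II hair keratins KRT81 and KRT86, near-identical copies whose values are uncertain, were at 11.5 and 0.710. In the adhesion and junction list 14 of 15 reached 20 counts with a median of 24.5, or 38.7 over genes overlapping no other gene. The tight junction protein CLDN4 was at 190 and P-cadherin, CDH3, at 53.3 (51.8 to 54.7), while E-cadherin, CDH1, was at 9.11 (8.48 to 9.77) from 773 counts. EPCAM was at 49.97. The epithelial regulators were uneven: the protease inhibitor SPINT2 was at 117 and the ETS factor ELF3 at 21.1, but the splicing factor ESRP1 had 18 counts, the small GTPase RAB25 5 and OVOL1 1, whereas the paralogue ESRP2 was at 5.32 from 635 counts.

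Of 15 mesenchymal genes 12 reached 20 counts, about the 80.2% of all genes. Their median was FPKM 8.92, against 4.84 for all genes, and 4.06 when only genes overlapping no other gene were kept. VIM, vimentin, had 72840 counts and was at 1914 (1900 to 1928) in normoxia and 2161 in hypoxia, so this filament stood between KRT8 and the highest ribosomal genes. The matrix protein TGFBI was at 680, S100A4 at 160, SPARC at 114, tenascin C (TNC) at 78.0 and fibronectin (FN1) at 35.8. Of the regulators of epithelial-mesenchymal transition, SNAI1 was at 20.7, SNAI2 at 4.06 and ZEB1 at 1.60, while ZEB2 had 8 counts. N-cadherin, CDH2, had 2 counts and FPKM 0.0247. The 2 cadherins highest in the lists were thus CDH3 and CDH1, and the mesenchymal CDH2 was at the level of a few reads.

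**Figure D2:**
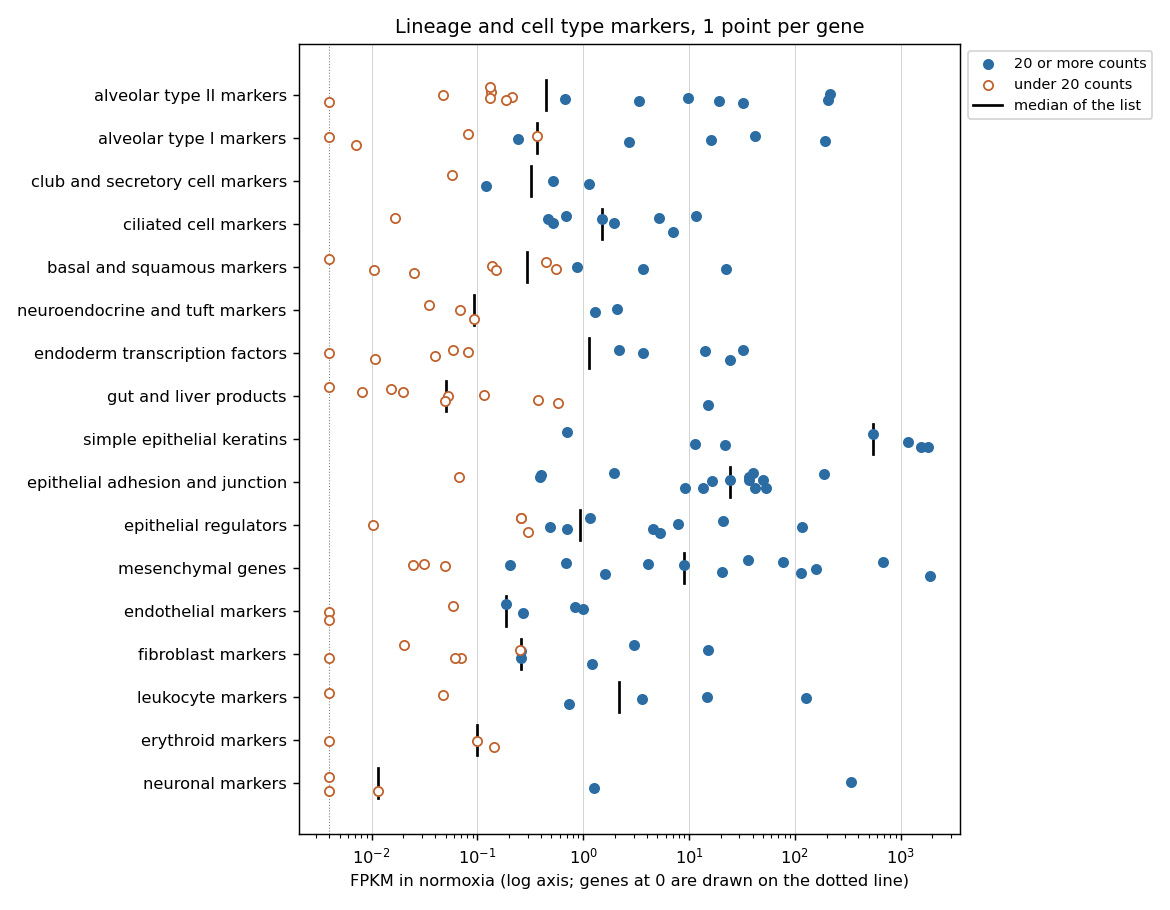
Normoxia FPKM of each lineage and cell type marker with a value, 1 point per gene and 1 line per list, on a log axis with genes at 0 drawn on the dotted line. Filled points reached 20 counts, open points did not, and the black bar is the median of the list. The keratins stand highest with a median of 549, and the alveolar type II list splits between MUC1 at 217 and surfactant genes under 1.

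Lists of cell types other than epithelium were checked against the label. Counts are over genes with a value, which were 7 of 10 listed endothelial, 6 of 12 leukocyte and 3 of 9 erythroid genes. Over all genes with a value 80.2% reached 20 counts. Endothelial markers summed to FPKM 2.36 in normoxia and 1.91 in hypoxia, with 4 of 7 at 20 counts but 1 at 50, CDH5 highest at 1.00, and VWF and TIE1 at 0. Fibroblast markers summed to 20.3 and 21.0, most of it the collagen COL1A1 at 15.1 from 1579 counts, with COL1A2 at 3.03, LUM at 12 counts and POSTN at 0. Leukocyte markers, with 4 of 6 at 20 counts, summed to 147 and 142, of which CD68, a lysosomal protein also made outside macrophages, gave 128 and CD14 gave 14.9, whereas the pan-leukocyte gene PTPRC had 0 counts. CD79A, a B cell receptor chain, had 63 counts and FPKM 3.63 in normoxia and 1.93 in hypoxia. Erythroid markers summed to 0.243 and 0.0683 with 0 of 3 at 20 counts. Neuronal markers summed to 342 and 384.5, of which TUBB3 alone gave 341 from 12185 counts, while RBFOX3 and NEFL were at 0. The lists were thus uneven, with CD68, CD14, COL1A1 and TUBB3 well above 20 counts and PTPRC, VWF and RBFOX3 at 0 in normoxia and 2 counts each in hypoxia. What part RNA of other cells has in the lineage levels was not tested.

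Receptor tyrosine kinases, which bind growth factors outside the cell and signal by phosphorylation, had a value for 51 genes, and 34 of these (66.7%) reached 20 counts, with a median of FPKM 1.89. Both values lay below those over all genes, 80.2% and 4.84. EPHB4, a receptor for ephrin B ligands (chr7:100802565-100827523), was highest with 6359 counts and FPKM 89.9 (87.7 to 92.2) in normoxia and 90.35 in hypoxia. MET, the hepatocyte growth factor receptor, followed with 5231 counts at 41.9 (40.8 to 43.05) and 44.2 in hypoxia. Both stood apart from their neighbours beyond counting error. PTK7, a Wnt co-receptor, was at 28.9, the collagen receptor DDR1 at 26.45, the ephrin receptor EPHA2 at 25.98, MST1R at 24.2, ERBB2 at 24.2, the Wnt receptor RYK at 22.9 and EGFR at 21.2. From DDR1 to EGFR each neighbour's interval overlapped the next, so neighbours in that stretch could not be ordered by these counts, while the interval of ERBB2 lay above that of EGFR.

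EGFR (chr7:55019017-55211628) had 4057 counts, FPKM 21.2 (20.5 to 21.8) in normoxia and 25.9 (25.2 to 26.6) in hypoxia. It stood above 78.85% of genes with a value, yet below EPHB4 and MET, and its interval overlapped that of RYK. Its partners differed widely. ERBB2, which forms heterodimers with EGFR, was at 24.2 (23.3 to 25.2), and ERBB3, the partner that couples to PI3K, was at 1.89 (1.63 to 2.18) from 189 counts. AXL, often linked to resistance to EGFR inhibitors, was at 17.97 and 15.55 in hypoxia, FGFR1 at 10.99 and IGF1R at 5.05. At the low end, ROS1 was at 0.166 from 39 counts, ALK had 6 counts, RET 3 and KDR, the main VEGF receptor of endothelium, 6. INSRR, FLT4 and TIE1 had 0 counts. Of 33 pairs of neighbours in the order, 10 had intervals apart and 23 overlapped. The same 10 kinases were highest in the hypoxia library.

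**Figure D3:**
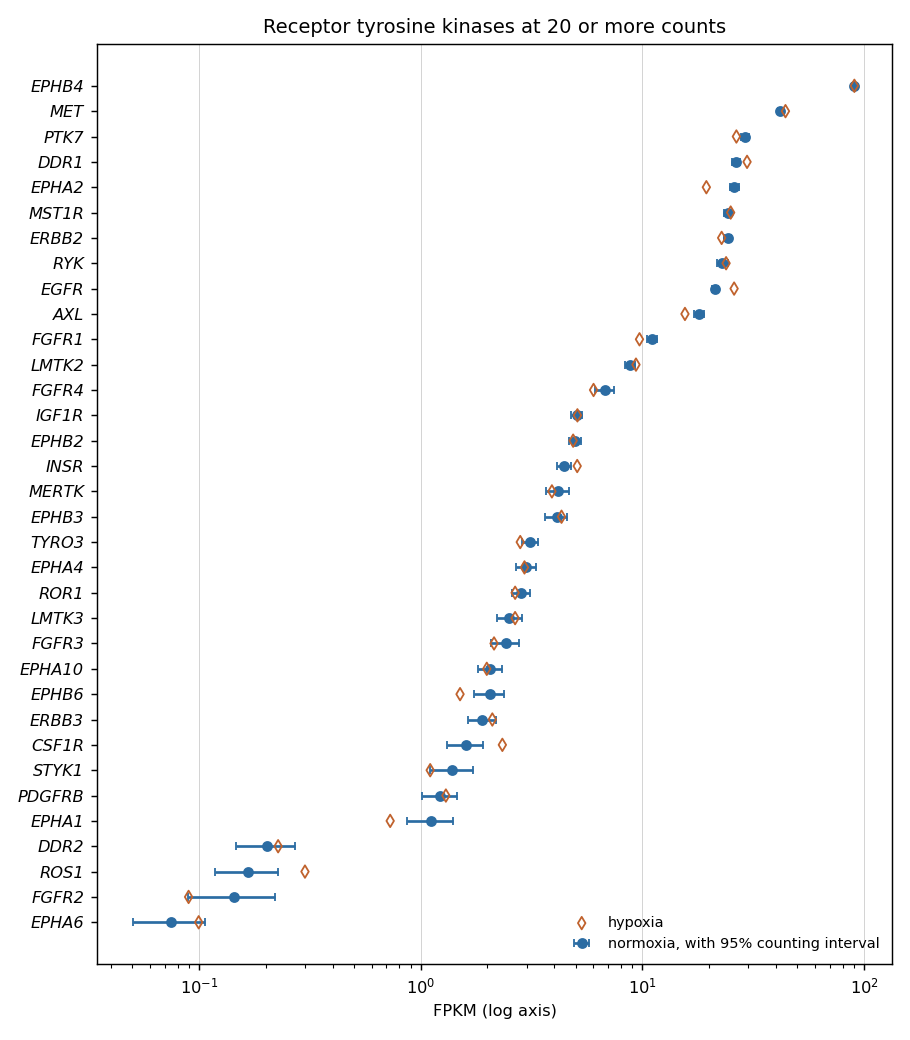
The 34 receptor tyrosine kinases at 20 or more counts, ordered by normoxia FPKM on a log x axis. Filled circles are normoxia with the 95% counting interval of the read count, and open diamonds are hypoxia. EPHB4 at 89.9 and MET at 41.9 stand apart, and the kinases from DDR1 to EGFR lie close together between 26.45 and 21.2.

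Some ligands of these receptors were also expressed in the cells. Of 34 with a value, 21 reached 20 counts (61.8%), with a median of FPKM 2.33. The values over all genes were higher, 80.2% and 4.84. Over ligand genes overlapping no other gene the median was 12.4, so its place below that of all genes depended on this choice. The endothelial growth factor VEGFA was at 34.5 in normoxia and 53.9 in hypoxia, PROS1 and GAS6, ligands of AXL and its relatives, were at 25.02 and 5.99, and ARTN, a ligand of the RET complex, was at 23.9. CSF1, the macrophage growth factor, was at 23.5 while its receptor CSF1R was at 1.60. Of the EGFR ligands, amphiregulin (AREG) was at 14.8 (13.2 to 16.5), HBEGF at 12.4, epiregulin (EREG) at 11.1 and TGFA at 4.75, whereas EGF had 19 counts and lay just outside the threshold.

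Nuclear receptors, transcription factors switched by hormones and lipids, reached 20 counts in 26 of 40 (65%) with a median of 2.19. These values too lay below those over all genes, 80.2% and 4.84. The orphan receptor NR2F6 was highest at 68.2, followed by the retinoic acid receptor RARG at 44.2, the oxysterol receptor NR1H2 at 39.97, RXRB at 25.96 and NR2F2 at 19.8. The glucocorticoid receptor NR3C1 was at 5.43. The oestrogen receptor ESR1 had 2 counts and RORA had 0.

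Cytokine receptors reached 20 counts in 28 of 34 with a median of 5.19, both near the values over all genes, 80.2% and 4.84. The tumour necrosis factor receptor TNFRSF1A was at 101 and the oncostatin M receptor OSMR at 48.5, with its signalling partner IL6ST at 8.89. IL13RA1 was at 36.9 with IL4R at 16.7, which together form a receptor for interleukins 4 and 13. IL7R, best known in lymphocytes, was at 20.5, while IL2RG, the chain it pairs with there, had 1 count. The erythropoietin receptor EPOR was at 18.8. In the TGF-beta family 12 of 14 (85.7%) reached 20 counts, led by the co-receptor endoglin (ENG) at 48.1 and TGFBR2 at 22.4, with TGFBR1 at 2.95. Wnt receptors reached 20 counts in 12 of 13 (92.3%), with LRP5 at 38.1, FZD2 at 26.8 and LGR4 at 18.2. Toll-like receptors, sensors of microbial products, reached 20 counts in 2 of 6, TLR5 at 0.967 and TLR6 at 0.898. G protein-coupled receptors from a fixed list reached 20 counts in 27 of 39 (69.2%), below the 80.2% of all genes. They were headed by the protease-activated receptor F2RL1 at 94.1, ADGRE5 at 85.9, the thrombin receptor F2R at 55.4 and GPRC5A, which is typical of lung epithelium, at 40.4. The chemokine receptors CXCR5 and CXCR3 had 71 and 10 counts.

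Genes downstream of these receptors were nearly all expressed. In the RAS, MAPK and PI3K list 29 of 29 reached 20 counts with a median of 10.2, beside 80.2% and 4.84 over all genes. MAP2K2 was at 146.5, the adaptor SHC1 at 90.8, AKT1 at 84.6 and the kinase STK11, a lung tumour suppressor, at 53.8. Paralogues differed in level. HRAS was at 24.1 and NRAS at 11.35. ARAF was at 36.3 and BRAF at 1.74, and AKT1 exceeded AKT2 at 9.12.

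Cell cycle genes reached 20 counts in 19 of 20 (95%), beside 80.2% of all genes. MYC was highest with 19467 counts and FPKM 244 (241 to 248) in normoxia and 197 in hypoxia. CDK4 was at 147 and its cyclin CCND1 at 96.0, while CCND3 was at 20.8 and CCND2 had 2 counts. CDKN1A, an inhibitor of cyclin-dependent kinases, was at 18.5 and MDM2, a ubiquitin ligase, at 3.53. CDKN2A was at 7.95 (7.35 to 8.59) from 649 counts, with its neighbours CDKN2B at 5.04 and MTAP at 2.97. RB1 was at 1.17 from 99 counts. The chromatin and other suppressor list reached 20 counts in 14 of 14, beside the same 80.2% of all genes. It was led by SMARCA4, a SWI/SNF ATPase, at 78.8, with SMARCA2 at 3.43. KEAP1 was at 74.2 and its target NFE2L2 at 26.75. U2AF1 was at 1.68 from 33 counts. A near-identical copy of that gene exists in the reference, so its value is uncertain.

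Over all 598 genes that the authors' deposited annotation places in a transcription factor family, 532 reached 20 counts (88.96%) and the median was 6.13. The values over all genes with a value were 80.2% and 4.84. That annotation includes several cofactors. At 100 or more stood 12 genes, namely MYC at 244, the corepressor TRIM28 at 229, DDX5 at 180, JUNB at 179 with 211.5 in hypoxia, DRAP1 at 171, JUND at 146.5, EGR1 at 131, CBX3 at 131, MAZ at 127, HNRNPL at 125, MYBL2 at 113 and HIF1A at 106. The immediate early factors JUNB and EGR1 respond to serum and growth factors. HIF1A, the oxygen-regulated subunit of the hypoxia-inducible factor, was at 102 in the hypoxia library.

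Glycolytic enzymes were among the abundant metabolic genes, and several steps were carried by 1 isozyme. The 15 gene families compared also include transporters, creatine kinases, actins and tubulins. In 5 of them a leading member held over 90% of the family's summed FPKM, and in 6 the leader held under 60%. The 5 include CKB, which is not glycolytic, and ALDOC, whose lead is uncertain as given below. PKM, pyruvate kinase M, held all but a trace of its family at FPKM 780, with 1 count for the liver form PKLR. PGAM1 held 99.8%, enolase 1 (ENO1) 98.1% and the brain-type creatine kinase CKB 96.5%. ENO1 was at 1159 and neuronal ENO2 at 19.1. LDHA, the lactate dehydrogenase subunit of glycolytic tissue, held 76.3% at 935 (926 to 944), and LDHB held 22.65% at 277.5. The leader was the same in the hypoxia library in 15 of 15 families.

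Other steps were shared. HK1 held 57.2% of the hexokinases at 51.1, the related HKDC1 27.3% at 24.4, and HK2 stood at 13.8 in normoxia and 21.8 in hypoxia. PFKP held 58.1% of the phosphofructokinases. Among glucose transporters SLC2A1 at 22.8 (21.6 to 24.0) and SLC2A3 at 20.01 (18.96 to 21.1) were close, with SLC2A6 at 14.8. They stood at 37.0 and 31.6 in hypoxia. The lactate exporter SLC16A3 held 33.5% of the monocarboxylate transporters at 55.2 and SLC16A1 24.6% at 40.6. By read counts SLC16A1 led, with 3229 against 3145. The aldolases were led by ALDOC at 65.7, with ALDOA, normally the main form outside liver and brain, at 2.64 from 100 counts. ALDOA overlaps 1 other RefSeq gene span, and the share of its reads counted elsewhere was not tested, so its low value and the lead of ALDOC are uncertain.

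**Figure D4:**
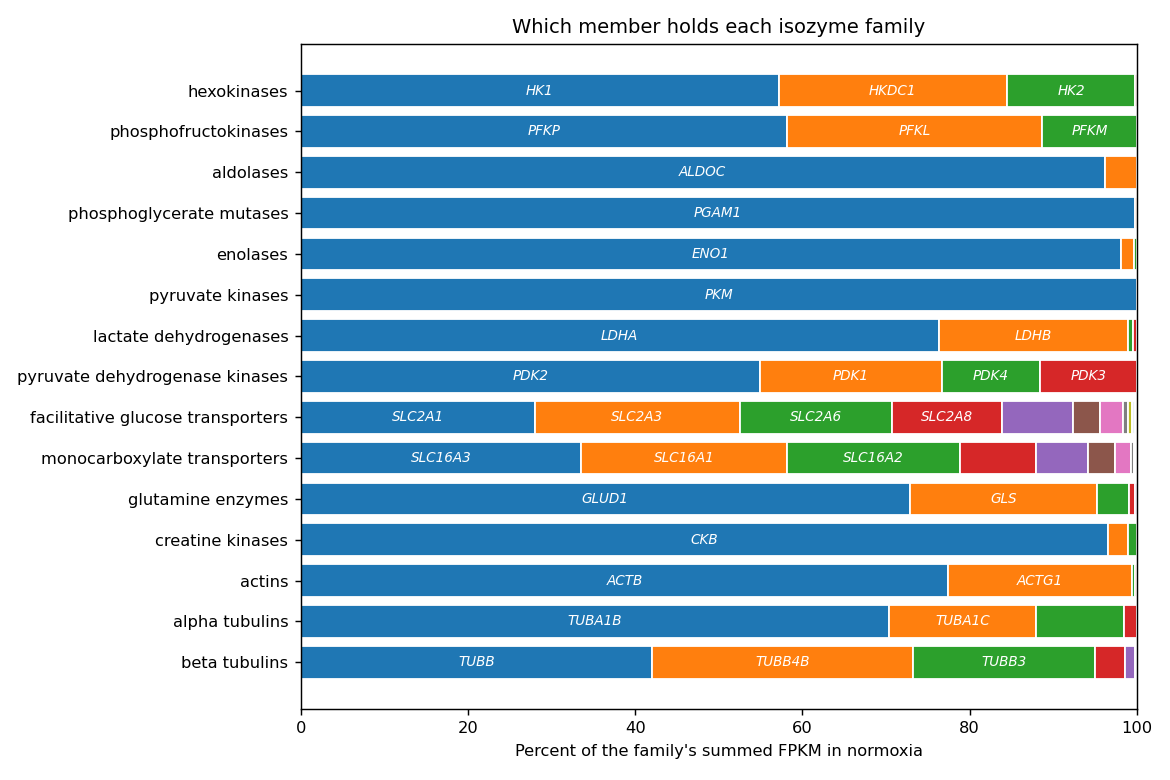
Share of each family's summed normoxia FPKM held by each member, as stacked bars from 0 to 100 percent, ordered from the highest member at the left, with wide segments labelled by gene. PKM, PGAM1, ENO1, CKB and ALDOC fill over 90% of their bars, whereas glucose and monocarboxylate transporters are divided among several genes. The aldolase, actin, tubulin and creatine kinase bars include genes with close copies or overlapping spans, whose values are uncertain.

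Most genes of the mitochondrial and biosynthetic pathways below reached 20 counts, beside 80.2% of all genes. All 21 genes of the tricarboxylic acid cycle reached 20 counts with a median of 66.9, from SUCLA2 at 7.68 to malate dehydrogenase MDH2 at 200.1. The pentose phosphate pathway reached it in 7 of 8 with a median of 82.9, led by transketolase (TKT) at 278. TKTL1 had 1 count. Fatty acid and sterol synthesis reached it in 25 of 25 with a median of 61.1, or 96.8 over genes overlapping no other gene. The desaturase SCD was at 428 (423 to 432), FDPS at 308 and fatty acid synthase (FASN) at 113. Fatty acid oxidation reached it in 15 of 16 with a median of 21.6 and ACADVL highest at 217.

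Serine and one-carbon genes reached 20 counts in 14 of 15. SHMT2 was at 99.4 and PSAT1 at 49.3, while PHGDH, the entry enzyme of serine synthesis, was at 7.67 (7.20 to 8.16) and GLDC had 9 counts. In the urea cycle and arginine list ASS1, which makes argininosuccinate, was at 152.5 and ODC1, the first enzyme of polyamine synthesis, at 116. CPS1 was at 2.93 and OTC had 0 counts. Gluconeogenesis genes reached 20 counts in 4 of 5, with pyruvate carboxylase (PC) at 35.9 and FBP1 at 7.86.

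Cytochrome P450 genes of families 1 to 4 reached 20 counts in 9 of 20 with a median of 0.275, and only CYP1B1, at 42.5 in normoxia and 60.7 in hypoxia, exceeded FPKM 10. CYP2E1, an ethanol-oxidising enzyme of liver, was at 9.35, and CYP1A1 had 5 counts. Conjugating and reducing enzymes reached 20 counts in 18 of 21, close to the 80.2% of all genes, with a median of 7.36. GSTP1 was at 1532 (1511 to 1553), aldose reductase AKR1B1 at 870, MGST3 at 216 and NQO1, a target of NFE2L2, at 161. GSTM1 had 1 count. AKR1C1 was at 1.49 and AKR1C2 had 11 counts, near-identical genes whose values are uncertain. Antioxidant genes reached 20 counts in 24 of 25 with a median of 59.7, or 106.6 over genes overlapping no other gene. GPX4, which reduces lipid peroxides, was at 713, GPX1 at 425 and thioredoxin (TXN) at 402, whereas SLC7A11, the cystine importer, was at 1.47 from 252 counts and GPX2 was at 0. Of 18 aldehyde dehydrogenases 14 reached 20 counts. ALDH3B1 was at 156, and ALDH1A1, a marker used for stem-like tumour cells, had 0 counts, which allows up to 0.0811.

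Genes of the ribosomes, complex I, the proteasome core and translation reached 20 counts almost throughout, beside 80.2% of all genes. Cytosolic ribosomal protein genes reached 20 counts in 82 of 84 with a median of 561. Complex I subunits reached it in 38 of 38 with a median of 80.1 and NDUFV1 highest at 639, mitochondrial ribosomal proteins in 77 of 78 with a median of 36.7, proteasome core subunits in 17 of 17 with a median of 128, and translation factors in 25 of 26 with a median of 116. EEF1A2, an elongation factor usually limited to muscle and neurons, was at 177, beside EEF1A1 at 1753. Other abundant families were less complete, with actins at 20 counts in 4 of 6 and beta tubulins in 7 of 9. In the S100 family 11 of 16 reached 20 counts (68.75%), below the share of all genes. Those 11 ran from S100A6 to S100A14 at 1.57, with S100A10 at 1244 and S100A11 at 715. Of the annexins 10 of 11 reached it, with ANXA1 at 602.5 and ANXA2, the partner of S100A10, at 273.

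Several ribosomal protein genes and NME2 had unusually few reads. RPL36A had 7 counts and FPKM 0.521, RPS10 143 counts and 9.84, RPL17 239 counts and 12.8, NME2 31 counts and 1.75, and MRPS24 1 count. These 5 genes, chosen after their values were seen, lie wholly within a RefSeq locus that joins them to a neighbour, such as RPS10-NUDT3 or NME1-NME2. Over all genes, 252 were covered by more than 95% by such a joined locus. Of these 252 genes 179 reached 20 counts, against 12478 of all 15562 genes (80.2%). Their median FPKM was 3.31, against 4.84 for all genes. NME1, also inside the joined locus, was at 38.3. Whether reads in these spans went uncounted was not tested, and a low value for a gene in a joined locus should be read with that limit.

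Developmental regulators were uneven in level. Among the HOX genes, which encode position along the body axis and lie in 4 clusters, HOXC had the most genes at 20 counts. There 6 of 8 reached it (75%), with a median of FPKM 2.16. Both values lay below those over all genes, 80.2% and 4.84. HOXC4 was at 3.93 (3.35 to 4.58), HOXC13 at 2.96 (2.46 to 3.53), HOXC9 at 2.499, HOXC6 at 2.32, HOXC10 at 2.01 and HOXC8 at 0.844. HOXC11, which lies within this cluster, had 0 counts in normoxia and 1 in hypoxia. In HOXA 3 of 11 reached 20 counts and 5 reached 10, and HOXA10 at 3.84 (3.29 to 4.46) from 172 counts stood well above HOXA13 at 0.712 and HOXA7 at 0.619. In HOXB 0 of 8 reached 20 counts and 2 reached 10, HOXB3 with 11 and HOXB9 with 10. In HOXD only HOXD4 did, at 1.49 from 135 counts, of 4 genes with a value. HOXC4 overlaps 4 other gene spans and HOXA10 overlaps 2, so some of these reads may belong to a neighbour.

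**Figure D5:**
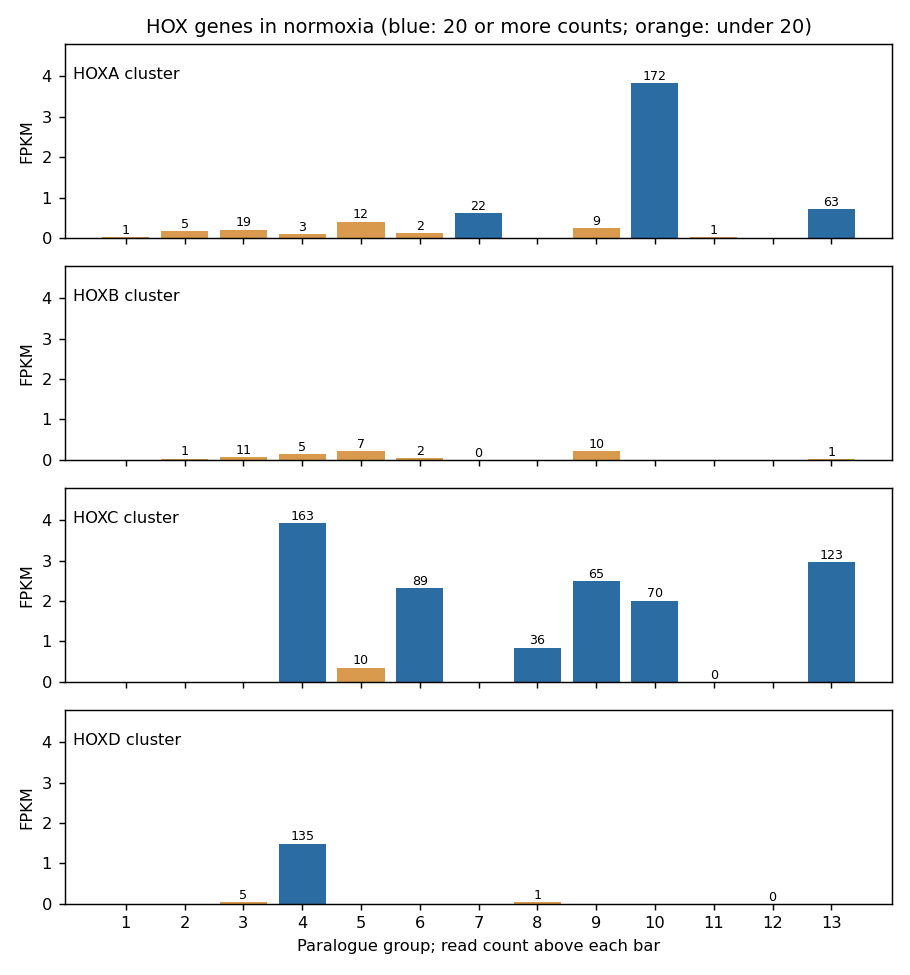
Normoxia FPKM of the HOX genes by cluster, 1 panel per cluster with the paralogue group on the x axis, FPKM on a shared y axis and the read count printed above each bar. Blue bars reached 20 counts and orange bars did not, and positions without a printed count have no gene or a gene not analysed here. The HOXC panel holds 6 blue bars, HOXA 3, HOXD 1 and HOXB 0.

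In the other developmental families, SOX genes reached 20 counts in 8 of 12 (66.7%), below the 80.2% of all genes. They were led by SOX12 at 37.2, SOX9 at 24.2 and SOX4 at 9.46. GATA2, best known in blood and endothelium, was at 6.83 (6.21 to 7.48), GATA6 at 2.17, and GATA3 had 6 counts. PAX9 was at 1.85 and PAX8 at 0.811. T-box genes reached 20 counts in 3 of 11 and 50 counts in 1, which was MGA, a partner in the MYC network, at 5.46. Of the 10 listed pluripotency and germ line factors 3 had a value and 0 reached 20 counts, and POU5F1 had 1 count.

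Genes of other organs mostly stayed under 20 counts, with named exceptions. Cancer testis antigens, germ line genes often switched on in tumours, reached 20 counts in 4 of 11 with a value. Their list holds 33 genes, and 80.2% of all genes with a value reached 20 counts. CT45A1 was at 26.5 from 444 counts, PRAME at 23.9 (22.55 to 25.3) from 1189, XAGE1B at 14.6 and XAGE1A at 7.25. The CT45 and XAGE1 genes have near-identical copies and their separate values are uncertain. MAGEA4 had 1 count, and MAGEA6 and CTAG2 had 0. Striated muscle genes reached 20 counts in 5 of 16 and FPKM 1 in 2, of which slow skeletal troponin T, TNNT1, was at 132 (127.5 to 137) from 2837 counts and cardiac troponin I, TNNI3, at 26.7 (24.1 to 29.45) from 397. They stood at 122 and 24.7 in hypoxia. The remaining 14 muscle genes were under FPKM 1, with NEB and MYH7 at 0. Hormones of other organs reached 20 counts in 1 of 10, cholecystokinin (CCK) at 2.85 from 82 counts. Photoreceptor and lens genes reached it in 2 of 10, the lens filament gene BFSP1 at 2.04 and PDE6B at 0.180.

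The large receptor families of the senses were at the bottom. Olfactory receptors had a value for 15 genes of 390 with such a symbol and 0 reached 20 counts, the highest being OR2B6 with 15. Keratin-associated proteins of hair had a value for 5 and 0 reached 20 counts. Taste receptors reached it in 2 of 13. Potassium channel genes reached it in 29 of 60 with a median of 0.160, and the calcium-activated channel KCNN4 was highest at 24.2. Solute carriers reached it in 223 of 303 with a median of 3.32, led by the mitochondrial ADP/ATP carrier SLC25A5 at 433. By contrast, genes with a ZNF symbol, a class of mostly zinc finger repressors, reached 20 counts in 458 of 481 (95.2%). Over all genes 80.2% did. The ZNF median was only 2.62. Clustered protocadherins, neuronal adhesion proteins with shared exons, reached it in 46 of 52 with a median of 1.05 and PCDHB8 highest at 6.51.

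The pathway column of the authors' deposited annotation gave a similar order over 293 pathways with 20 or more genes with a value. Ribosome had the highest median FPKM at 228, followed by Proteasome at 74.1, Oxidative phosphorylation at 64.24 and the citrate cycle at 64.21. Steroid biosynthesis was at 41.45, Glutathione metabolism at 35.9 and Ferroptosis at 32.75. The lowest medians were Taste transduction at 0.0745, Olfactory transduction at 0.09998 and Phototransduction at 0.191, with Neuroactive ligand-receptor interaction at 0.238. Pathways share genes and are not independent.

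Across chromosomes, the share of genes at 20 counts was lowest on X, 384 of 534 (71.9%), and on chromosome 13, 183 of 244 (75%), and highest on chromosome 14, 418 of 495 (84.4%). Median FPKM was lowest on chromosome 13 at 1.79 and chromosome 4 at 2.62, and highest on chromosome 22 at 9.24 and chromosome 20 at 8.96. Chromosome Y was not analysed here. Copy number was not measured in these files.

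Levels in the hypoxia library were close to those in normoxia for most members. Of 12478 members 348 (2.79%) differed by more than 1.5-fold in FPKM and 12130 (97.2%) did not. Across members, which are genes and not replicates, Pearson's r was 0.997 on log2(FPKM + 1) and Spearman's rho was 0.997. These correlations are descriptions, since both libraries share gene lengths and the same cell line. Of the members named here, VEGFA, SLC2A1, SLC2A3, HK2, ROS1 and the uncertain U2AF1 were beyond 1.5-fold and higher in hypoxia, and CD79A, CXCR5, S100A14 and TTN were beyond it and lower. ROS1, U2AF1, CD79A, CXCR5, S100A14 and TTN had 39, 33, 63, 71, 32 and 21 counts in normoxia, where counting error is large.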

How the data were processed

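RNA-seq was made from TRIzol RNA with a stranded mRNA kit, per the labels' protocols. Tools named in the submitters' processing notes, with no role given, are HISAT2, HTSeq, Cufflinks, Trimmomatic and Bowtie, and the build is GRCh38. Strand use in counting was not given in the sources used here, so reads of overlapping genes on opposite strands cannot be told apart. The read counts per gene and the FPKM were deposited by the authors, for genes with at least 1 count in either RNA-seq library. FPKM equalled counts divided by the table total and a gene length. The lengths implied by the 2 RNA-seq libraries agreed within 0.01 bases where both had counts. Each length was rounded to a whole number of bases. The share of genes with a whole length before rounding is not given here. Small RNA tables were not used.

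Counting intervals, list counts and medians, isozyme shares and promoter matches came from Python 3.11.15 (scipy 1.17.1, pandas 2.3.3, numpy 2.4.6). Figures used matplotlib 3.10.9. List medians include members under 20 counts. Scaling was varied with edgeR 4.0.16 and DESeq2 1.42.0 in R 4.3.3, and the procedure was tested on simulated data. Of the genes, 15526 matched RefSeq GRCh38.p14, which gave coordinates and promoters, and promoters were found for 82.1% of members. For a class with under 80% matched, numbers of promoters are given without a share.

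The members and the 71 lists, with 1085 genes of which 877 had a value and 629 reached 20 counts, were chosen with earlier results of these data known. Named genes were the 30 highest, up to 5 highest and 5 under 20 counts per list, extremes of symbol families, up to 3 genes on each side of the threshold and a fixed set of lung cancer genes. Other genes named, the joined loci, the transcription factor column and the pathway order were chosen after their values were seen. Genes left without a value were not analysed here. Values of a few further genes under this rule are not reported here, though these genes stay in the counts and medians. Each group has 1 library, so no replicates could be compared and no p-value was computed.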

Additional observations from a re-analysis of the deposited data

How the results depend on the processing

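With 1 library per condition no replicate could be left out, and counting error is the only error given. No paired analysis was possible because each group has 1 library and the numbers 1 only name it. The number of expressed genes was 13095, 11594 and 10814 at minimums of 10, 50 and 100 counts, and 11176 at FPKM 1 or more, each within 1.5 times of 12478. The share of the 100 highest genes was 17.93% by counts, 32.37% by FPKM and 18.03% in the hypoxia library. The share of genes beyond 1.5-fold between libraries was 2.79% over members, 2.73% with edgeR's TMM and 2.72% with DESeq2 size factors. It was 15.65% over all genes with a value, where genes with few reads enter. There the 511 genes at 0 in normoxia were all counted as beyond. Of 71 lists, the count at the threshold moved by over 1.5 times in 6 at 10 counts, 7 at 50 and 11 at FPKM 1, and the median FPKM left the counting interval of the median in 53 when only genes overlapping no other gene were kept and in 25 in the hypoxia library. The median over all listed genes was 3.99, and 3.65 and 3.905 in those settings. Over 15 isozyme families, 12 leading shares left their counting interval by counts without length and 8 in hypoxia, while 5 leaders held over 90% in each. By counts instead of FPKM the median length of the 100 highest genes moved from 1085 to 2106 bases, and the share of TOP starts among members above the median was 6.32% instead of 6.16%. Among the highest 100 the TOP starts numbered 18 of 78 promoters by counts and 29 of 81 by FPKM.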
